A study of Mus musculus with 14 samples.

Results

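The 40 autophagy genes described here encode the proteins that start, build and load autophagosomes, together with the transcription factor TFEB, and were taken by gene symbol from the 24091 genes of the counts table. Messenger RNA was measured by bulk RNA-seq in T cells sorted from the spleen of mice with chronic myeloid leukemia (CML). The 8 CP CML mice (CP, chronic phase) were Mir142+/+BCR-ABL and the 6 BC CML mice (BC, blast crisis) were Mir142−/−BCR-ABL, that is, they also lacked Mir142, the gene of the microRNA miR-142, through a knockout that was not restricted to T cells. Both groups carried the SCLtTA/BCR-ABL transgenes. The SCL sequences drive the tetracycline-controlled activator in blood stem and progenitor cells, the leukemia-driving fusion kinase is switched on when tetracycline is withdrawn from the drinking water, and in both groups it had been on for 3 weeks (tet-off). The mice of the study were of both sexes, 6 to 10 weeks old and on a CD45.2 C57Bl/6j background, and no other treatment was given. The surface markers used for this sort were not given in the sources used here.

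Macroautophagy encloses cytoplasm, organelles or tagged proteins in a double membrane and delivers them to lysosomes for breakdown. A kinase complex around ULK1 receives nutrient signals, a lipid kinase complex around VPS34 and Beclin 1 marks the growing membrane, and a conjugation machinery that resembles ubiquitin ligation attaches LC3 and GABARAP proteins to it, to which cargo receptors bind. In T cells, autophagy is known for removing mitochondria as naive cells mature and for the survival of naive and memory cells. MicroRNAs such as miR-142, which is abundant in blood cells, pair through a short seed at their 5′ end with sites in the 3′ untranslated region (3′UTR) of messenger RNAs and lower their level or translation.

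Atg16l1, which encodes the scaffold that directs LC3 conjugation to membranes, was listed among the members as a reported miR-142 target, so the seeds are shown first. The hairpin on chromosome 11 gives a pair of mature microRNAs, at chr11:87756903-87756925 (3p arm) and chr11:87756867-87756887 (5p arm), both on the plus strand (RefSeq sequences, GRCm38.p6). Capitals mark the seed, bases 2 to 8.
mmu-miR-142a-3p: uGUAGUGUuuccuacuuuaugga
mmu-miR-142a-5p: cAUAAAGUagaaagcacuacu

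The letters that pair with these seeds were searched in forms of 7 bases (ACACTAC or CACTACA for the 3p arm, ACTTTAT or CTTTATA for the 5p arm) and of 8 bases that join both (ACACTACA and ACTTTATA), on the transcript strand in the longest annotated 3′UTR of each gene (GENCODE vM21, GRCm38, the assembly that mm10 names). Of the 39 members that could be tested for a difference, 14 (35.9%) held a match of 7 or 8 bases to either arm, against 30.5% of 11500 tested genes with a 3′UTR. An 8-base match was found in 4 members, all of them to the 3p arm. These 4 matches are shown with the matches of Atg16l1 and the stronger match of Wipi1, since these genes recur below. Capitals mark the matched bases.
Atg4b, 3p, chr1:93789325-93789332, plus strand: catatggaACACTACAacctgagg
Atg4c, 3p, chr4:99258812-99258819, plus strand: ctaatggaACACTACAtcaactgc
Atg4d, 3p, chr9:21277300-21277307, plus strand: cacccctaACACTACAatccatat
Wipi2, 3p, chr5:142668080-142668087, plus strand: gtggtctcACACTACAccccaggc
Wipi1, 3p, chr11:109576760-109576766, minus strand: ctatacatACACTACcttagttc
Atg16l1, 3p, chr1:87791521-87791527, plus strand: ggtgggaaACACTACtaactctg
Atg16l1, 5p, chr1:87792181-87792187, plus strand: tactttgcACTTTATtttttgct
All of these lie in an exonic 3′UTR. The match of Atg4d lies beyond the end that the counts table gives for this gene, so reads over it may not have been counted.

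Between 15703702 and 19914531 reads were assigned to genes per mouse in CP CML and between 16145537 and 19399720 in BC CML. Mir142 had 302 to 650 reads in each CP CML mouse and 0 reads in all 6 BC CML mice, at least 146.6-fold lower against a floor of 3 reads per library. All 12 T cell identity genes were detected, of which 7 were higher and 1 lower in BC CML, with a summed level of 4304 to 4753 CPM (counts scaled to the TMM-normalized library size) in CP CML and 4930 to 5348 in BC CML. Other marker lists also differed. Of 9 naive T cell genes 8 were lower and 1 higher, and their sum was 5899 to 7388 CPM in CP CML and 3660 to 5089 in BC CML. Of 15 myeloid genes 13 were higher and none lower, with a sum of 208.9 to 616.5 CPM in CP CML and 1015 to 1806 in BC CML, and none of the 15 was at 0 in every mouse. All 5 tested NK cell genes were higher, with a list sum of 127.0 to 163.5 against 409.5 to 551.4 CPM. The sixth, Klra4, was at 0 in every mouse, and the mean of Ncr1 went from 2.61 to 10.5 CPM and that of Klra8 from 0.148 to 15.8 CPM. Of 8 B cell genes 7 were higher, with a sum of 59.3 to 178.4 against 104.1 to 513.4 CPM. Of 5 tested basophil, mast cell and progenitor genes 2 were higher, with a list sum of 5.30 to 12.7 against 19.8 to 53.6 CPM. Of 5 tested erythroid genes 1 was higher, and of 8 proliferation genes 1 was lower. The part that these lists play in the results for the autophagy genes was not tested. In bulk samples fewer cells of a type and less RNA per cell cannot be told apart. By flow cytometry of spleen T cells from mice of these genotypes, the study reported smaller naive and larger effector fractions in BC CML. The sample names of each group share a number prefix that the other group's names lack. What it stands for was not given in the sources used here, and whatever it marks cannot be told apart from genotype.

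The autophagy genes moved in both directions. Of 39 members that passed the filter on low counts, 30 (76.9%) differed between BC CML and CP CML, against a background of 65.2% of 12248 genes tested (edgeR's quasi-likelihood test, Benjamini-Hochberg adjusted p under 0.05). There were 16 members higher in BC CML (background 32.6%) and 14 lower (background 32.7%), and 9 did not pass the threshold. For 17 members the values of the groups did not overlap (background 36.9%), with all 6 BC CML mice above all 8 CP CML mice for 10 members (background 19.3%) and below them for 7 (background 17.6%). The median log2 fold change of the members was 0.03, compared with −0.01 over all genes tested, and the median size regardless of sign was 0.26 compared with 0.28. Called log2 fold changes with a size of 1 or more were found for 2 members (5.13%, background 12.9%). The plot of fold changes by role shows each member with its standard error.

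**Figure D1:**
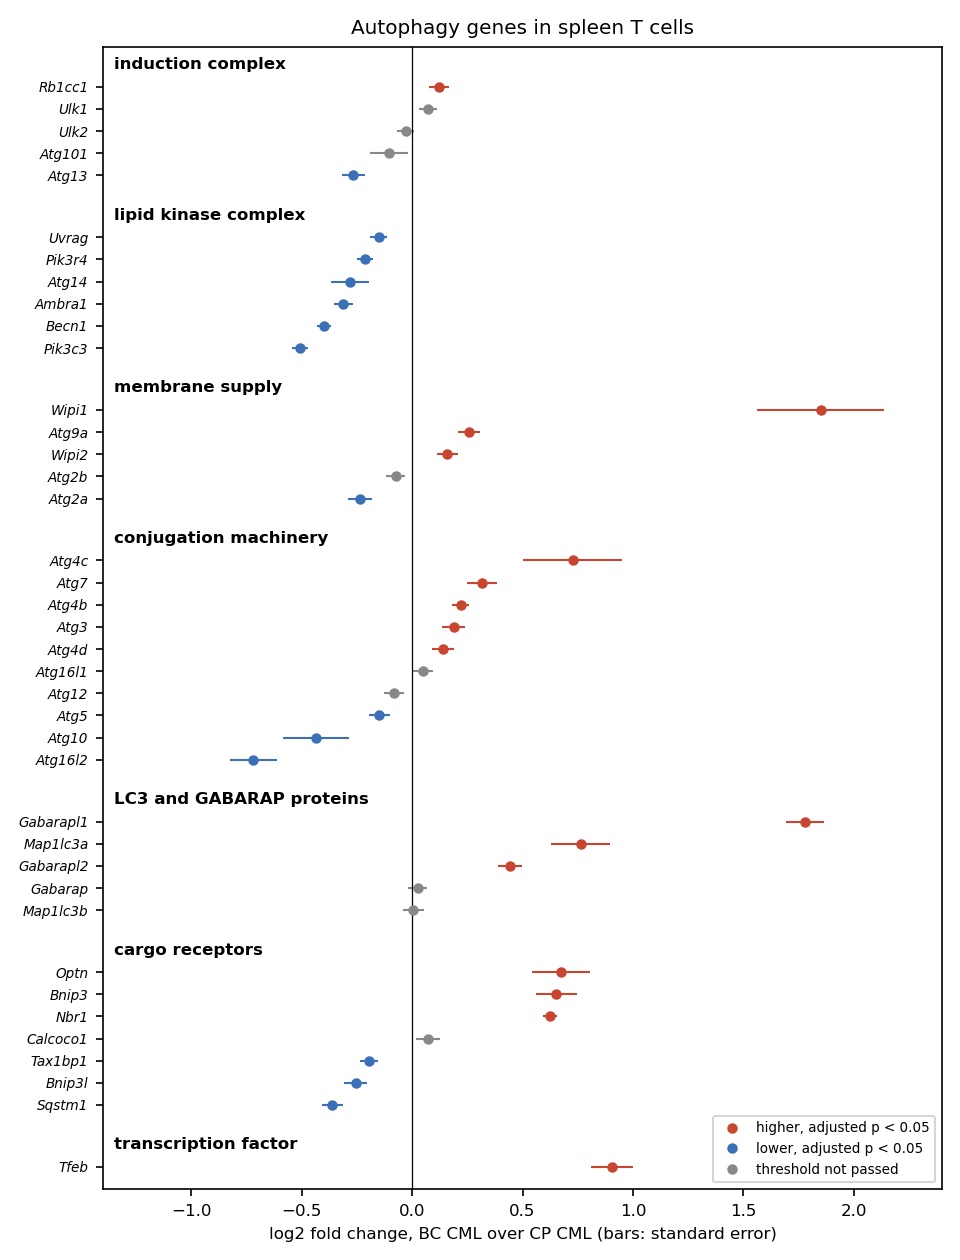
Log2 fold change of the 39 tested autophagy genes in BC CML over CP CML (x axis; bars are the standard error), grouped by role (y axis). Red points were higher, blue points lower (adjusted p under 0.05), and grey points did not pass. All 6 genes of the lipid kinase complex lie left of 0, and the points farthest to the right are Wipi1 (1.85) and Gabarapl1 (1.78).

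The row named Atg4a is the member that did not pass the filter, with 1 to 3 reads per CP CML mouse and 0 to 2 per BC CML mouse. The table places it at chr3:103643953-103646068, which is the span that RefSeq (GRCm38.p6) gives to the pseudogene Atg4a-ps. RefSeq places the protein-coding Atg4a at chrX:140953845-141164194, and the expression of that gene was not analysed here. The other 39 rows lie on the RefSeq gene of the same symbol.

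The lipid kinase complex makes the phosphatidylinositol 3-phosphate that recruits later factors. All 6 genes of this complex were called lower (background 32.7% of genes tested), with a median log2 fold change of −0.30. Pik3c3 encodes its catalytic subunit VPS34 (chr18:30272896-30348120). Its lowest, median and highest values were 81.0, 84.9 and 91.1 CPM in CP CML and 56.6, 59.96 and 63.0 CPM in BC CML. The groups did not overlap, and the log2 fold change was −0.51 (SE 0.04, edgeR adjusted p = 1.82e-09). Becn1 encodes Beclin 1, the regulatory subunit to which activators and BCL2 proteins bind (chr11:101288267-101302267). It ran from 160.2 through a median of 165.7 to 174.8 CPM in CP CML and from 123.5 through 125.5 to 130.4 CPM in BC CML, again with no overlap. The log2 fold change of Becn1 was −0.40 (SE 0.03, edgeR adjusted p = 4.58e-09). Its annotated exons share 29.6% of their bases with Cntd1 on the other strand, and the strand setting of the counting was not given in the sources used here, so some reads may belong to the neighbour.

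Ambra1, a Beclin 1 partner that links the complex to ULK1, fell by 0.31 on the log2 scale (SE 0.04, edgeR adjusted p = 4.23e-06), from a median of 115.8 CPM (105.6 to 124.6) to 94.2 CPM (84.9 to 99.1). Pik3r4, the VPS15 scaffold that holds VPS34, fell by 0.21 (SE 0.04, edgeR adjusted p = 7.17e-05), from 70.2 CPM (66.9 to 75.2) to 59.8 CPM (58.6 to 64.4). Neither gene overlapped between the groups. The subunits that set where the complex acts were also lower, with overlapping ranges. Atg14, which directs it to the site of autophagosome formation, fell by 0.28 (SE 0.09, edgeR adjusted p = 0.00797), and Uvrag, which directs it to endosomes, fell by 0.15 (SE 0.04, edgeR adjusted p = 0.0017).

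Of the 5 genes of the induction complex, 1 rose (background 32.6%), 1 fell (background 32.7%) and 3 did not pass the threshold. Atg13, the adaptor between the ULK kinases and their partners, had 56.9, 62.0 and 69.2 CPM as lowest, median and highest values in CP CML and 45.0, 52.2 and 54.8 CPM in BC CML. All BC CML mice were below all CP CML mice, and Atg13 fell by 0.27 on the log2 scale (SE 0.05, edgeR adjusted p = 0.000216). Rb1cc1, which encodes the large scaffold FIP200, rose by 0.12 (SE 0.05, edgeR adjusted p = 0.0256), with medians of 136.3 and 150.7 CPM and overlapping ranges. This call was lost without BC CML replicate 6 (log2 fold change 0.09, adjusted p = 0.0782). The kinase genes themselves had log2 fold changes of 0.07 (Ulk1, adjusted p = 0.142) and −0.03 (Ulk2, adjusted p = 0.51), and Atg101, which stabilizes ATG13, had −0.10 (adjusted p = 0.296), none of them past the threshold in edgeR's test.

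**Figure D2:**
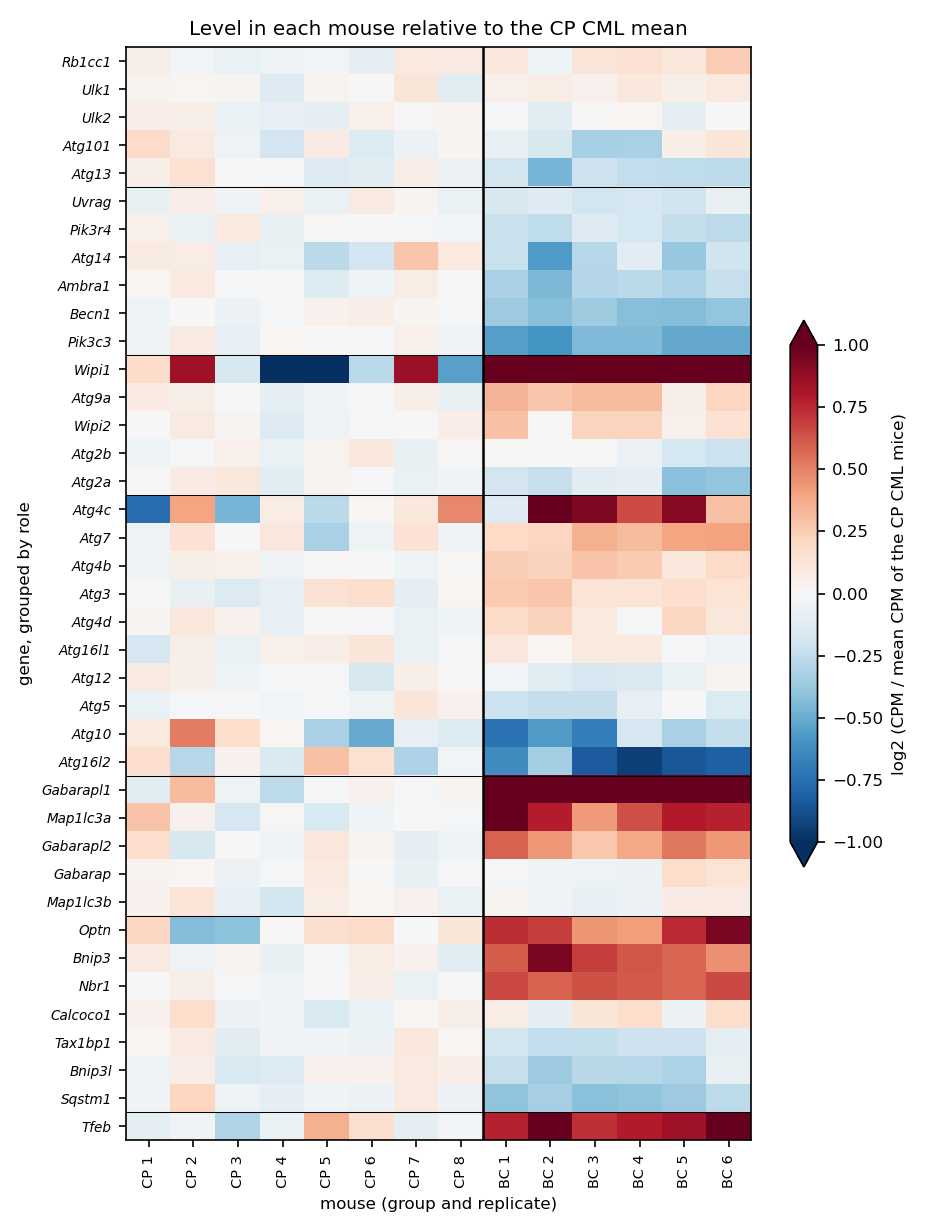
Level of the 39 tested genes (rows, by role, separated by thin lines) in each of the 8 CP CML and 6 BC CML mice (columns, separated by the thick line), as log2 of CPM over the mean CPM of the CP CML mice, with colors saturated at −1 and 1. Wipi1 and Gabarapl1 are dark red in all 6 BC CML mice, and Pik3c3, Becn1 and Ambra1 are blue in all 6.

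Among genes that supply membrane and lipid, 3 of 5 rose (background 32.6%), 1 fell (background 32.7%) and 1 did not pass. Wipi1 and Wipi2 encode propeller proteins that read the lipid made by the VPS34 complex. Wipi1 (chr11:109573521-109611389) was weakly expressed, with 5 to 27 reads per CP CML mouse and 42 to 91 reads per BC CML mouse. Its lowest, median and highest values were 0.318, 0.787 and 1.65 CPM in CP CML and 2.33, 3.01 and 4.68 CPM in BC CML. All BC CML mice were above all CP CML mice, with a log2 fold change of 1.85 (SE 0.29, edgeR adjusted p = 2.16e-05). Wipi2, which binds ATG16L1 directly and is the more abundant paralogue, rose by 0.16 (SE 0.05, edgeR adjusted p = 0.00632) from a median of 72.1 to 81.6 CPM, with overlapping ranges. Per unit of gene length, Wipi1 made up 1.63% ± 0.85 (SD, n = 8 mice) of the summed WIPI level in CP CML, and 5.17% ± 1.48 in BC CML (SD over 6 mice).

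Atg9a, whose product is the lipid scramblase of the vesicles that seed the membrane, rose by 0.26 on the log2 scale (SE 0.05, edgeR adjusted p = 0.000157), from a median of 35.6 CPM (33.5 to 37.8) to 43.8 CPM (37.2 to 45.2). A processed transcript, Gm29253, covers 41.8% of its exonic bases on the same strand, which makes its count uncertain. The lipid transfer proteins of the ATG2 family did not rise. Atg2a fell by 0.23 (SE 0.05, edgeR adjusted p = 0.00108), and Atg2b had a log2 fold change of −0.07 (SE 0.04, adjusted p = 0.135).

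In the conjugation machinery, 5 of 10 tested genes rose (background 32.6%), 3 fell (background 32.7%) and 2 did not pass. Atg7 encodes the E1-like enzyme that activates both ATG12 and the LC3 family (chr6:114643097-114860614). Its lowest, median and highest values were 15.5, 19.1 and 21.5 CPM in CP CML and 22.3, 24.5 and 25.6 CPM in BC CML. The groups did not overlap, and Atg7 rose by 0.31 on the log2 scale (SE 0.07, edgeR adjusted p = 0.000594). Of the E2-like enzymes, Atg3, which transfers LC3 to the membrane lipid, rose by 0.19 (SE 0.05, edgeR adjusted p = 0.00378), while Atg10, which transfers ATG12 to ATG5, fell by 0.43 (SE 0.15, edgeR adjusted p = 0.017). Atg5, the acceptor of ATG12, fell by 0.15 (SE 0.05, edgeR adjusted p = 0.0112), and Atg12 itself had a log2 fold change of −0.08 (SE 0.04, adjusted p = 0.116).

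The ATG4 cysteine proteases prime LC3 and GABARAP proteins for conjugation and later release them from the membrane. All 3 of the protease genes tested rose (background 32.6%). Atg4b (chr1:93755033-93789529) ran from 41.4 through a median of 42.9 to 44.5 CPM in CP CML and from 46.1 through 50.4 to 52.2 CPM in BC CML. These ranges did not overlap, and the log2 fold change was 0.22 (SE 0.04, edgeR adjusted p = 6.39e-05). Atg4d rose by 0.14 (SE 0.05, edgeR adjusted p = 0.0166), with medians of 30.7 and 34.2 CPM and overlapping ranges. It shares 23.2% of its exonic bases with Kri1 on the other strand. Atg4c rose by 0.73 (SE 0.22, edgeR adjusted p = 0.00856) on 19 to 39 reads per CP CML mouse and 29 to 69 reads per BC CML mouse, also with overlap.

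Atg16l1, shown above with a match to each arm of miR-142, did not differ past the threshold. Its lowest, median and highest values were 70.5, 80.3 and 86.3 CPM in CP CML and 77.4, 82.6 and 85.8 CPM in BC CML, so that the BC CML range lay within the CP CML range. The log2 fold change was 0.05 (SE 0.05, edgeR adjusted p = 0.365). Its paralogue Atg16l2 (chr7:101289616-101302088), whose product also binds ATG5 but whose role in autophagy is less clear, had 24.9, 31.0 and 37.8 CPM in CP CML and 16.2, 17.5 and 24.4 CPM in BC CML. All BC CML mice were below all CP CML mice for Atg16l2, which fell by 0.72 on the log2 scale (SE 0.11, edgeR adjusted p = 1.76e-05). Per unit of gene length, Atg16l1 made up 38.2% ± 3.88 (SD, n = 8 mice) of the pair in CP CML, compared with 51.1% ± 3.99 in BC CML (SD over 6 mice). Without division by length it was 72.1% and 81.4%, so in CP CML which paralogue is the more abundant depends on the gene length used, while the increase in the share of Atg16l1 was present on both scales.

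**Figure D3:**
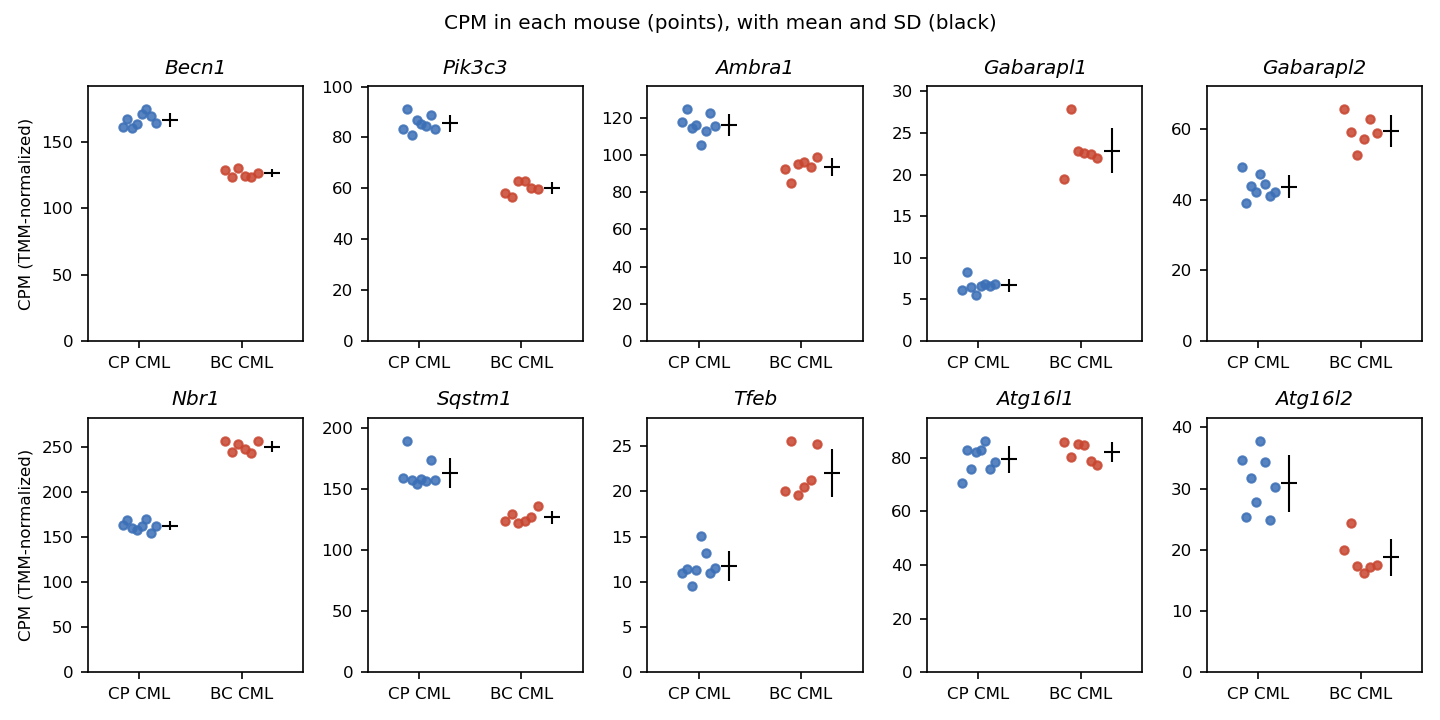
Normalized CPM (y axis, starting at 0, one scale per panel) of 10 autophagy genes in each CP CML mouse (blue, n = 8) and BC CML mouse (red, n = 6), with the mean and SD in black. Atg16l1 overlaps between the groups. The other 9 genes do not, with Becn1, Pik3c3, Ambra1, Sqstm1 and Atg16l2 lower and Gabarapl1, Gabarapl2, Nbr1 and Tfeb higher in BC CML.

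Of the 5 genes for LC3 and GABARAP proteins, the ubiquitin-like tags that coat the autophagosome, 3 rose (background 32.6%) and 2 did not pass the threshold. Gabarapl1 (chr6:129533192-129542331) had 5.56, 6.59 and 8.31 CPM as lowest, median and highest values in CP CML and 19.5, 22.5 and 27.9 CPM in BC CML. The BC CML mice were thus well above the CP CML mice, with no overlap. Gabarapl1 was 3.43-fold higher in BC CML, with a log2 fold change of 1.78 (SE 0.09, edgeR adjusted p = 1.10e-11). Gabarapl2, which encodes GATE-16, ran from 39.1 through a median of 43.0 to 49.2 CPM in CP CML and from 52.7 through 58.9 to 65.6 CPM in BC CML. It rose by 0.44 on the log2 scale (SE 0.06, edgeR adjusted p = 2.09e-06). Map1lc3a rose by 0.76 (SE 0.13, edgeR adjusted p = 6.98e-05) on 26 to 41 reads per CP CML mouse and 47 to 71 reads per BC CML mouse. None of these 3 genes overlapped between the groups.

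A pair of abundant genes of this family did not pass the threshold. Map1lc3b, the LC3 gene most often used to follow autophagy, had a log2 fold change of 0.00 (SE 0.05, edgeR adjusted p = 0.94), and Gabarap had 0.03 (SE 0.04, edgeR adjusted p = 0.624). The sign of both small values turned when single libraries were left out. On the per-length scale (RPKM, that is CPM per kilobase of gene length), Gabarap was the highest of all members, with 104.0 ± 3.9 RPKM in CP CML and 105.8 ± 7.8 RPKM in BC CML (mean ± SD over 8 and 6 mice). The summed level of the family was 202.2 ± 8.1 RPKM in CP CML and 230.7 ± 12.6 RPKM in BC CML. Within that sum, the share of Gabarapl1 was 1.62 to 2.30% in CP CML and 4.72 to 6.94% in BC CML, and that of Gabarapl2 was 19.7 to 23.7% and 25.04 to 28.8%. The shares of Gabarap and Map1lc3b were correspondingly smaller in BC CML, with 50.3 to 53.4% against 44.0 to 47.5% for Gabarap.

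**Figure D4:**
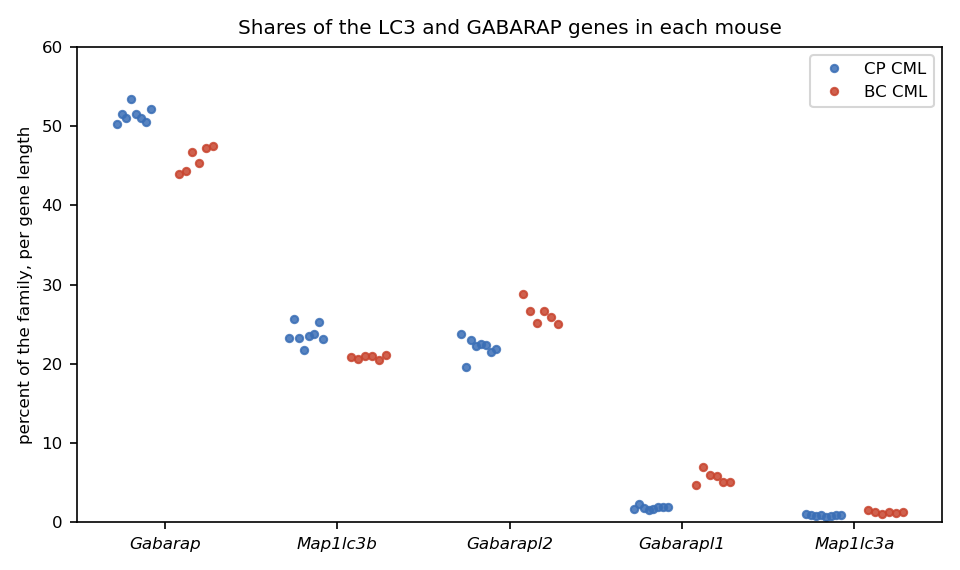
Share of each LC3 and GABARAP gene in the summed per-length level of the 5 genes (y axis, percent) in each CP CML mouse (blue, n = 8) and BC CML mouse (red, n = 6). Gabarapl1 rose from a mean of 1.86% to 5.63% and Gabarapl2 from 22.1% to 26.4%, while Gabarap went from 51.4% to 45.9%.

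Cargo receptors bind the LC3 and GABARAP proteins on one side and cargo on the other. Of their 7 genes, 3 rose (background 32.6%), 3 fell (background 32.7%) and 1 did not pass. Nbr1 (chr11:101552107-101581951), a receptor for ubiquitin-tagged proteins, had 154.8, 162.5 and 169.8 CPM in CP CML and 243.4, 250.4 and 256.8 CPM in BC CML as lowest, median and highest values. The groups were far apart relative to their spread, and Nbr1 was 1.54-fold higher, with a log2 fold change of 0.62 (SE 0.03, edgeR adjusted p = 9.75e-12). Sqstm1 (chr11:50200152-50210820) encodes p62, which binds the same kind of cargo and works together with NBR1. It moved the other way, from 153.6, 157.8 and 189.2 CPM in CP CML to 121.8, 125.1 and 135.9 CPM in BC CML. No BC CML mouse reached the lowest CP CML mouse, and Sqstm1 fell by 0.36 on the log2 scale (SE 0.05, edgeR adjusted p = 2.80e-06). It shares 20.5% of its exonic bases with Mrnip on the other strand. On the per-length scale, Sqstm1 went from 80.6 ± 6.0 to 62.7 ± 2.6 RPKM and Nbr1 from 31.8 ± 1.0 to 49.0 ± 1.1 RPKM (mean ± SD, n = 8 and 6 mice).

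The pair of receptors that sit in the outer mitochondrial membrane also diverged. Bnip3 was low, with 3.77, 4.07 and 4.31 CPM in CP CML and 5.55, 6.19 and 7.79 CPM in BC CML as lowest, median and highest values, and rose by 0.65 on the log2 scale without overlap (SE 0.09, edgeR adjusted p = 8.83e-06). An antisense gene, Gm45507, covers 27.2% of its exonic bases. Its more abundant paralogue Bnip3l, which encodes NIX, fell by 0.26 (SE 0.05, edgeR adjusted p = 0.000279), from a median of 140.0 to 111.6 CPM with overlap. On the per-length scale Bnip3 made up 5.30% ± 0.43 of the pair in CP CML and 9.56% ± 1.52 in BC CML (mean ± SD, n = 8 and 6 mice).

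Optn encodes optineurin, a receptor for ubiquitin-tagged mitochondria and bacteria. It ranged from 2.32 through a median of 3.28 to 3.60 CPM in CP CML and from 4.18 through 5.13 to 6.02 CPM in BC CML, and rose by 0.67 without overlap (SE 0.13, edgeR adjusted p = 0.000243). Tax1bp1, which works with p62 and NBR1 on protein aggregates, fell by 0.20 (SE 0.04, edgeR adjusted p = 0.000293) with overlapping ranges. Calcoco1, a receptor of the endoplasmic reticulum, had a log2 fold change of 0.07 (SE 0.06, adjusted p = 0.269).

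Tfeb (chr17:47737037-47792416) encodes the transcription factor that drives many lysosomal and autophagy genes through the CLEAR element when nutrients are scarce. It had 9.55, 11.4 and 15.1 CPM as lowest, median and highest values in CP CML and 19.6, 20.8 and 25.6 CPM in BC CML. All BC CML mice were above all CP CML mice, and Tfeb was 1.87-fold higher, with a log2 fold change of 0.90 (SE 0.09, edgeR adjusted p = 1.66e-07). The core of the CLEAR element, CACGTG, which reads the same on both strands, was searched in RefSeq promoter windows (GRCm38.p6, 250 bases before to 50 bases after each start), which were found for 32 of the tested members. It was present in 5 of the 32 (15.6%), against 11.8% of 9548 tested genes with a window. These were Atg7, Atg3 and Bnip3, which rose, and Atg5 and Atg14, which fell. The longer form GTCACGTG, searched on both strands and containing the core, was present in Atg7, Atg3 and Atg14 (9.38%, against 4.87% of tested genes). No window of Gabarapl1, Nbr1 or Tfeb held either form.

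Several of the larger changes were in members at low levels. With a mean log2 CPM of 3 as the divide, chosen after the values were seen, 6 members were below it (Wipi1, Atg4c, Map1lc3a, Optn, Bnip3 and Atg10), of which 5 rose and 1 fell, with a median log2 fold change of 0.70. Among all tested genes below the divide, 38.7% were higher and 21.1% lower. Of the 33 members at or above it, 11 were higher and 13 lower, with a median of −0.03, and of all genes at or above it 30.5% were higher and 36.6% lower. The myeloid, B cell and NK cell lists given above were higher in the same mice, and their part in the rise of the low genes was not tested. At the upper end of the per-length scale, Gabarap, Sqstm1 and Becn1 led in CP CML with 104.0 ± 3.9, 80.6 ± 6.0 and 62.7 ± 1.9 RPKM (SD, n = 8 mice). In BC CML, Gabarap was followed by Sqstm1 and Gabarapl2, at 62.7 ± 2.6 and 60.8 ± 4.6 RPKM (SD, n = 6 mice), which do not differ beyond their spread.

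Read by the seed matches, the 7 members with a match of 7 or 8 bases to miR-142-3p included 5 that were higher (Atg4b, Atg4c, Atg4d, Wipi1 and Wipi2), none that was lower, and Atg16l1 and Calcoco1, which did not pass. Their median log2 fold change was 0.16. Among all 1382 tested genes with such a match, 49.2% were higher and 21.8% lower, also with a median of 0.16. The 4 members with the 8-base form were all called higher, by 0.14 to 0.73, compared with 57.6% higher and 15.3% lower among 347 genes with that form. The 8 members with a match of 7 bases to miR-142-5p, of which Atg16l1 is also among the 7 above, included 2 higher (Atg7 and Rb1cc1), 1 lower (Becn1) and 5 that did not pass, that is 25% higher and 12.5% lower, against 40% and 28.4% of 2686 tested genes with a match of 7 or 8 bases. Of the 25 members with no match of 7 or 8 bases to either arm, 9 were higher and 13 lower, with a median of −0.15, while of 7992 such genes in all 29.9% were higher and 35.3% lower. The genes of the lipid kinase complex other than Becn1, and Gabarapl1, Nbr1, Sqstm1, Atg16l2 and Tfeb, were among those with no match. The counts describe where these letters occur and do not show that a site is used.

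Genes upstream and downstream of the members were read from a list of 116, of which 112 were tested. The lists were chosen with earlier results of these data known. There were 53 higher and 28 lower in BC CML, that is 72.3% called against the background of 65.2%. The 41 lysosomal genes had the most uneven split, with 23 higher and 9 lower (78% called) and a median log2 fold change of 0.23, against backgrounds of 32.6% higher and 32.7% lower. For 20 of the 41, all BC CML mice were above all CP CML mice (background 19.3%). By edgeR's test, the lysosomal proteases Ctsd and Ctsl rose by 0.80 (SE 0.05, adjusted p = 7.41e-11) and 1.25 (SE 0.09, adjusted p = 7.96e-10), and Ctsz and Ctsc by 0.95 and 0.79. Ctsd, which encodes cathepsin D, went from 351.5 ± 12.4 CPM to 611.8 ± 50.1 CPM (mean ± SD, n = 8 and 6 mice). Cathepsins are also abundant in myeloid cells. The myeloid list was higher in the same mice, and its part in the values of the lysosomal genes was not tested. In the opposite direction, Ctsa, which encodes cathepsin A, fell by 0.46 and the cholesterol carrier Npc2 by 0.65. The acid lipase Lipa fell by 0.56 and the sialidase Neu1 by 0.53, and none of these 4 genes overlapped between the groups.

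Among 30 tested genes of nutrient sensing, 13 were higher and 6 lower (63.3% called, below the background of 65.2%). Rraga, the RAG GTPase that brings the growth kinase mTORC1 to the lysosome, rose by 0.75 (SE 0.04, edgeR adjusted p = 3.24e-11), and Rheb, the GTPase that activates it there, by 0.46. Akt1s1, which encodes the mTORC1 inhibitor PRAS40, rose by 0.72, and Sesn3, a sestrin that restrains mTORC1, by 0.71. Mlst8, a subunit of mTORC1, and Prkag1, a regulatory subunit of the energy sensor AMPK, fell by 0.28 and 0.17.

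Of 16 tested genes for the fusion of autophagosomes with lysosomes, 6 were higher and 6 lower (75% called, background 65.2%). The endosomal SNARE Stx7 rose by 1.05 (SE 0.05, edgeR adjusted p = 3.99e-12) and Stx17, the SNARE of the finished autophagosome, by 0.57. Subunits of the HOPS tethering complex moved both ways. Vps18 rose by 0.46 and Vps33a by 0.18, Vps16 fell by 0.45, Vps41 by 0.21 and Vps11 by 0.20, and Vps39 had a log2 fold change of 0.03 and did not pass the threshold. Vps33a, Vps39 and Vps41 were named after their values were seen. Tecpr1, a tether that binds ATG5 and ATG12, fell by 0.41, from 320.9 ± 10.9 to 242.0 ± 17.1 CPM (mean ± SD, n = 8 and 6 mice).

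Of 25 other autophagy factors tested, 11 were higher and 7 lower (72% called, background 65.2%). Dram2, a lysosomal membrane protein gene, rose by 0.89, Sh3glb1, which encodes the Beclin 1 partner BIF-1, by 0.62, the scramblase gene Vmp1 by 0.67 and Wdr45b, a WIPI relative, by 0.58. Fam134b, a receptor for the endoplasmic reticulum, fell by 0.70 (SE 0.05, edgeR adjusted p = 3.43e-09), and Tex264, another such receptor, by 0.31. Nrbf2, which binds the VPS34 complex, fell by 0.37, as the subunits of that complex did, and Ei24 fell by 0.16.

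**Figure D5:**
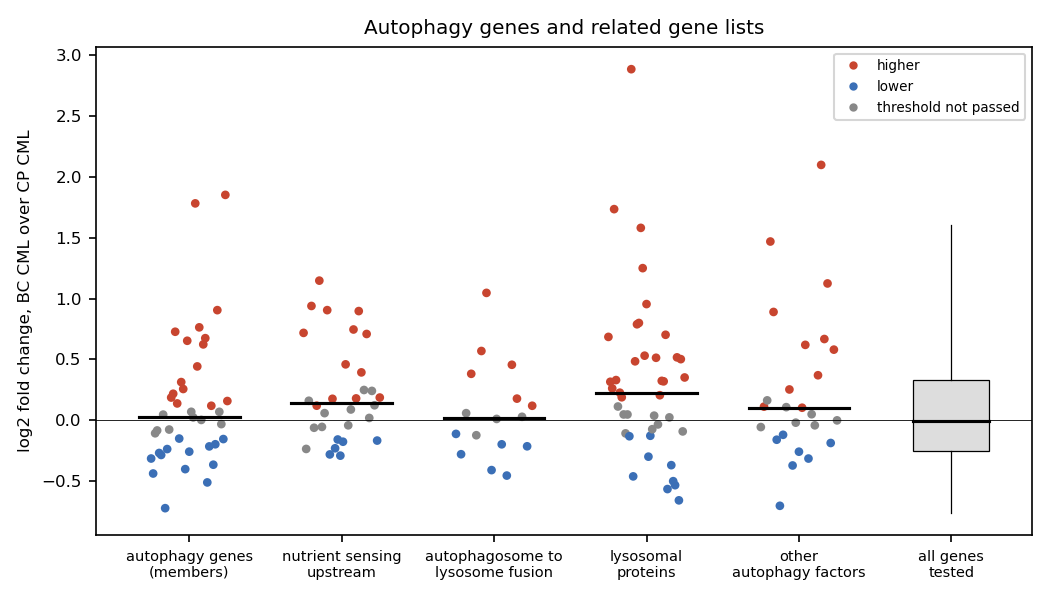
Log2 fold change in BC CML over CP CML (y axis) of the 39 tested autophagy genes and of 4 lists of related genes (points; red higher, blue lower, grey not past the threshold), with the median of each list as a black bar. The box shows all 12248 genes tested (quartiles and median, with lines to the 5th and 95th percentiles). The lysosomal list has the highest median, 0.23, and the lists were chosen with earlier results of these data known.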

How the data were processed

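RNA of sorted spleen T cells was sequenced as paired reads of 101 bases, and the authors trimmed them with Trimmomatic and FASTP and deposited raw counts per gene. The submitters' processing notes name STAR 2.6.0, HTSeq 0.11.1, edgeR and the build mm10. Whether the counting used strand was not given in the sources used here. Counts were analysed with edgeR 4.0.16 in R 4.3.3: filterByExpr, TMM factors and the quasi-likelihood test over all 14 mice, with Benjamini-Hochberg adjustment over 12248 genes and a threshold of 0.05. CPM are TMM-normalized, and RPKM used the gene lengths of the table. Total reads per mouse and the number of mice set the precision. The test was checked on simulated data. Tried as alternatives were DESeq2 1.42.0, edgeR's likelihood ratio test, scaling by RLE factors or by library size alone, other filters, the replicate number as a block, and leaving out each mouse. Members and lists were chosen with earlier results of these data known. All members could be named, and related genes were named by lowest p (up to 4 in each direction per list, mean log2 CPM of at least 3, no overlap between groups). Sequence matches were read from RefSeq and GENCODE vM21.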

Additional observations from a re-analysis of the deposited data

Results flagged for a closer look

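In 5 of 82 groups of values examined, 1 mouse stood apart from the others of its group by Dixon's criterion, where about 4.1 are expected by chance at 1 in 20. Atg13 was 45.0 CPM in BC CML replicate 2, and the next lowest mouse of that group had 51.8 CPM. Atg7 was 15.5 CPM in CP CML replicate 5, and the next lowest had 18.8 CPM. Map1lc3a was 2.24 CPM in CP CML replicate 1, and the next highest had 1.89 CPM. Tax1bp1 was 251.3 CPM in BC CML replicate 6, and the next highest had 235.4 CPM. The total of BC CML replicate 2 was 16145537 reads, and the next lowest BC CML total was 18319039. Without the mouse that stood apart, each of these 4 genes was called in the same direction.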

How the results depend on the processing

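The number of members called was 30 with the likelihood ratio test, DESeq2, RLE factors and either other filter on low counts, and 29 with library size alone. Leaving out each mouse in turn gave 15 to 16 members higher, 14 to 15 lower and 17 to 20 without overlap, a member median of −0.01 to 0.04, 51 to 54 related genes higher and 26 to 29 lower, and 3861 to 3977 genes higher and 3847 to 3989 lower in all. With library size alone Rb1cc1 lost its call (log2 fold change 0.11, adjusted p = 0.0518), and without CP CML replicate 6 Atg12 gained one (−0.10, adjusted p = 0.0379). The cause was not tested. The value near 0 of Map1lc3b turned negative with library size alone (−0.00478) and in 6 of the 14 fits that left out a mouse (−0.0209 to 0.0226), and that of Gabarap in 1 (−0.00868 to 0.0406).

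Samples with the same replicate number did not deviate together (mean correlation −0.02, 1 of 6 pairs closest to its own number), so the numbers do not pair the mice. With the replicate number as a block over the 12 mice that share numbers, 27 members were called, and Atg14 (−0.21, adjusted p = 0.0583), Atg5 (−0.12, adjusted p = 0.0625) and Atg10 (−0.45, adjusted p = 0.0693) were not. Genes with under 100 reads per mouse, such as Wipi1, Map1lc3a and Atg4c, are limited by depth.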
